A study of Mus musculus with 5 samples.

Results

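Retnla, Saa3, Lrg1, Reg3g, Prg4 and Chia1 encode secreted proteins that have been described in injured or inflamed epithelium, and they were followed here in single-cell RNA-seq of mouse lung after neonatal hyperoxia. The 6 genes were taken by their exact symbols from the 42454 features of the deposited tables, of which 25245 held at least 1 molecule in a filtered cell. They had been chosen by their levels and changes in these same libraries, so the values below describe them and give no test. The data came from 5 libraries of lung cells of C57BL/6J mice, with 1 library per condition. Newborn mice breathed room air or 95% O2 for 3 days, and the hyperoxia mice then recovered in air. Unsorted lung cells of air-exposed and of hyperoxia-exposed mice were taken on postnatal day 7 (pnd7) and on postnatal day 60 (pnd60). The fifth library held cells of hyperoxia-exposed mice at pnd7 that had been sorted for C12FDG, a substrate that becomes fluorescent when β-galactosidase, an enzyme used as a mark of senescent cells, cleaves it. For that library the suspensions of 3 mice were pooled. How many mice stand behind each of the others, and of which sex, was not given. Both unsorted pnd7 libraries came from an earlier dataset of the same group, so the sort and the preparation cannot be told apart.

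Retnla (resistin-like alpha) is a small cysteine-rich protein of the resistin family that epithelial cells and macrophages release in type 2 inflammation, downstream of IL-4, IL-13 and STAT6. Saa3 is a locally made acute phase apolipoprotein, Lrg1 is a leucine-rich glycoprotein that modifies TGF-β signalling in endothelium and is induced through IL-6 and STAT3, and Reg3g is an antibacterial C-type lectin. Prg4 is lubricin, which coats joint and serosal surfaces, and Chia1 is the acidic chitinase of the airways and stomach. Type II cells, which make surfactant and renew the alveolar epithelium, and secretory cells of the airways are the main secreting cells of the distal lung.

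In the GRCm38 annotation Retnla lies on chromosome 16 (48842551 to 48844461, plus strand), Saa3 on chromosome 7 (46711998 to 46715700, minus strand), Lrg1 on chromosome 17 (56119678 to 56122001, minus strand), Reg3g on chromosome 6 (78466269 to 78468872, minus strand), Prg4 on chromosome 1 (150449412 to 150466165, minus strand) and Chia1 on chromosome 3 (106113229 to 106132120, plus strand). All are protein-coding genes. Upstream sequences from RefSeq (GRCm38.p6) were at hand for 5 of the 6 genes. They are shown for the 3 genes that were at least 2-fold higher in hyperoxia than in air at pnd7, on the strand of the gene, 5′ to 3′, and they stop before the first annotated transcript base of either RefSeq or GENCODE. Capitals mark matches to the motifs searched, and the windows are chr16:48842359-48842550 (+), chr17:56122002-56122196 (−) and chr7:46715701-46715926 (−).
Retnla: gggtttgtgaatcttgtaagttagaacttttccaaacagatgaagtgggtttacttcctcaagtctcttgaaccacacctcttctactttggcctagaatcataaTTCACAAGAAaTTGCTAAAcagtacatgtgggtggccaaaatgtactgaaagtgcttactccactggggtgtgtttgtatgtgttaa
Lrg1: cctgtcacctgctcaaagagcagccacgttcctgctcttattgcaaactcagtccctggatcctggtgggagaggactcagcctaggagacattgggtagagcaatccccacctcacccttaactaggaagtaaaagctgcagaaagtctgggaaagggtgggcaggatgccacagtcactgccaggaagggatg
Saa3: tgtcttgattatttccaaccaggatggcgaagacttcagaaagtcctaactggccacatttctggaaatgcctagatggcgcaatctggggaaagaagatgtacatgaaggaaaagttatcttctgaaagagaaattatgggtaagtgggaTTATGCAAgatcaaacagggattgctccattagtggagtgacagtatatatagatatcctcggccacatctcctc

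Both strands of the 250 bases before the RefSeq start were searched for 4 motifs, TATAAA, TTCNNNGAA and TTCNNNNGAA (STAT spacings of 3 and 4 bases) and TTGCNNAA (a C/EBP core), whose matches did not overlap each other in these windows. Retnla held TTCACAAGAA from base 145 and TTGCTAAA from base 134 before its start, with 1 base between them, and TATAAA from base 30, which lies beyond the stretch shown. Of the 32851 RefSeq windows of this length, 5.85% held the STAT spacing of 4 that Retnla carries, 9.56% the C/EBP core and 12.4% TATAAA. Saa3 held 1 C/EBP core, read on the opposite strand (TTATGCAA). Lrg1 held none of the 4 motifs, and the STAT spacing of 3, which 7.02% of the windows carry, was in none of the 5 genes. These matches describe the letters of the windows and are not shown to be binding sites.

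The filtered libraries held 493 to 4756 cells and 7880365 to 16648251 unique molecular identifiers (UMIs, counts of single mRNA molecules), and the median cell had 2168 UMIs in air at pnd60 and 15529 in the C12FDG-sorted library. Any pair of libraries shared between 0 and 4 cell barcodes. Levels are CPM, the UMIs of a gene scaled to the total UMIs of the cells named, and a level over a whole library cannot tell more cells of a type from more mRNA per cell. All intervals are 95% intervals and cover counting error only, not the difference between mice. A gene was called past 2-fold in a comparison where it had at least 20 UMIs in both libraries together and its CPM differed by at least 2-fold. Clusters were named "X-like" from fixed marker genes. The 7 type II markers were 9.42-fold to 103-fold higher in type II-like cells than in all other cells of the same library, and 412 of the 493 C12FDG-sorted cells were alveolar macrophage-like.

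The 6 genes did not share one source. Lrg1 and Chia1 were mainly in type II-like cells of every unsorted library, Retnla was mainly in type II-like cells at pnd7 (52.1% of its UMIs in air, with 33.6% in unnamed clusters) and in a few macrophage-like and dendritic-like cells at pnd60, and Reg3g in air at pnd60 was in secretory airway-like cells. The UMIs of Prg4 and Saa3 were mainly in macrophage-like and fibroblast-like cells, so the description as epithelial secretions did not hold for these members. When each cell was classed by its own marker counts, the type II-like share of Retnla in hyperoxia at pnd7 was 61.1% in place of 93.5%.

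**Figure D1:**
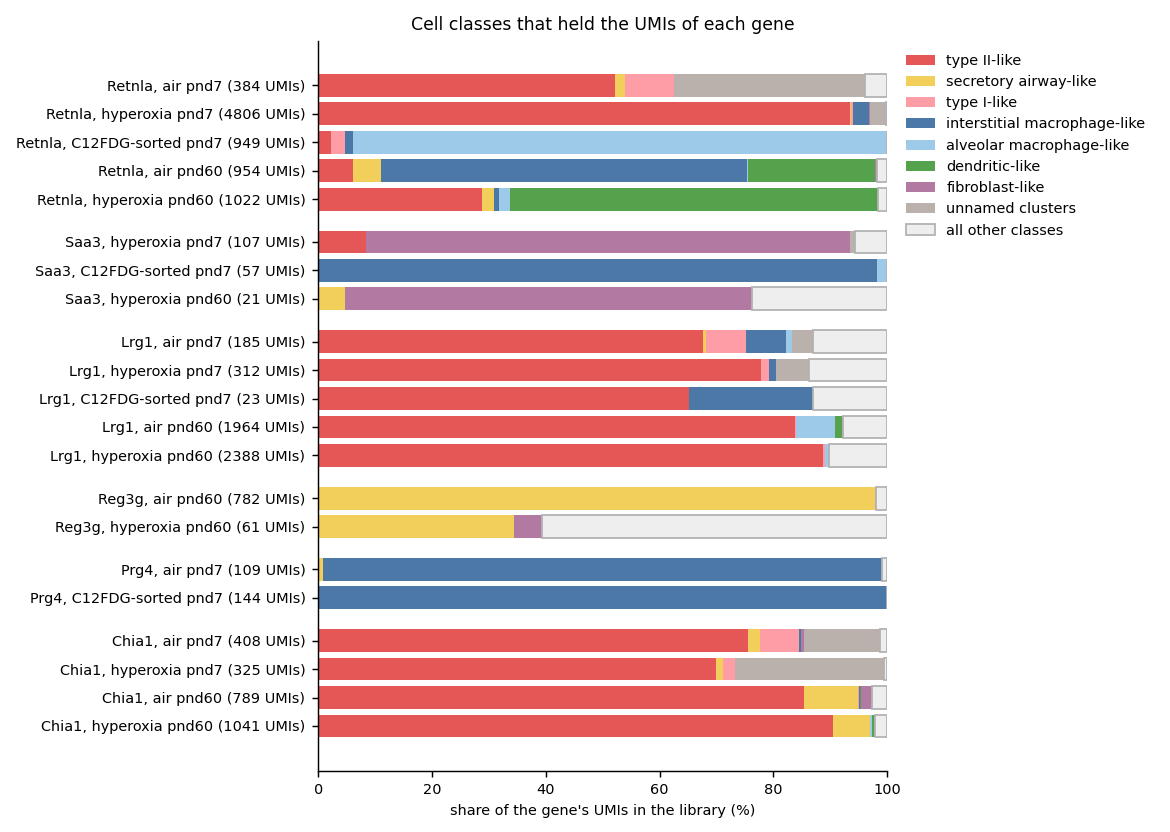
Share of the UMIs of each gene (x axis, percent) that lay in each cell class, with 1 bar for each library in which the gene had at least 20 UMIs. Type II-like cells held 93.5% of the Retnla UMIs in hyperoxia at pnd7 but 6.18% in air at pnd60, and interstitial macrophage-like cells held nearly all Prg4 UMIs.

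At pnd7, hyperoxia was compared with air to see which of these genes differed after the exposure. Retnla had 384 UMIs in air (23.1 CPM, 20.8 to 25.5) and 4806 in hyperoxia (354 CPM, 344 to 364). Saa3 had 9 and 107 UMIs (0.541 and 7.88 CPM). Lrg1 had 185 and 312 UMIs (11.1 and 23.0 CPM). All 3 were at least 2-fold higher in hyperoxia, with log2 ratios of 3.94 (3.79 to 4.09) for Retnla, 3.87 (2.89 to 5.03) for Saa3 and 1.05 (0.78 to 1.32) for Lrg1. Prg4 was lower, with 109 UMIs in air and 1 in hyperoxia (log2 ratio -6.47, -11.79 to -3.97). Chia1 had 408 and 325 UMIs and a log2 ratio of -0.03 (-0.25 to 0.18), and Reg3g had 0 and 1 UMI. Thus 3 of the 5 genes with enough UMIs were past 2-fold higher and 1 was lower, beside 0.926% and 2.36% of all 15660 genes tested. The rule had used this comparison, and nothing is read from these shares. Leaving out the 1 cell with most UMIs in each library took Saa3 to 2.06 and Lrg1 to 0.84, under 2-fold, and took Prg4 below 20 UMIs. With class shares held equal in both libraries Lrg1 was at 0.92.

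At pnd60 the differences were fewer. Retnla had 954 UMIs in air (64.7 CPM) and 1022 in hyperoxia (61.8 CPM), a log2 ratio of -0.07 (-0.19 to 0.06). Lrg1 had 1964 and 2388 UMIs (133 and 144 CPM), and Chia1 789 and 1041 UMIs (53.5 and 63.0 CPM), with log2 ratios of 0.12 (0.03 to 0.20) and 0.23 (0.10 to 0.37). These 3 genes were within 2-fold. The Retnla value depended on single cells. Without the top cell of each library its log2 ratio was -0.99 (-1.18 to -0.81), at the edge of 2-fold lower, while without the 5 highest cells of each library it was 0.19. Saa3 had 3 and 21 UMIs (log2 ratio 2.64, 0.90 to 5.03) and Reg3g had 782 and 61 UMIs (53.0 and 3.69 CPM, log2 ratio -3.85, -4.25 to -3.47). Prg4 had 5 and 2 UMIs, too few to call. Of the 5 genes with enough UMIs, 1 was thus past 2-fold higher and 1 lower, beside 1.28% and 0.829% of all 15917 genes. Without the top cell of each library Saa3 no longer had 20 UMIs.

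**Figure D2:**
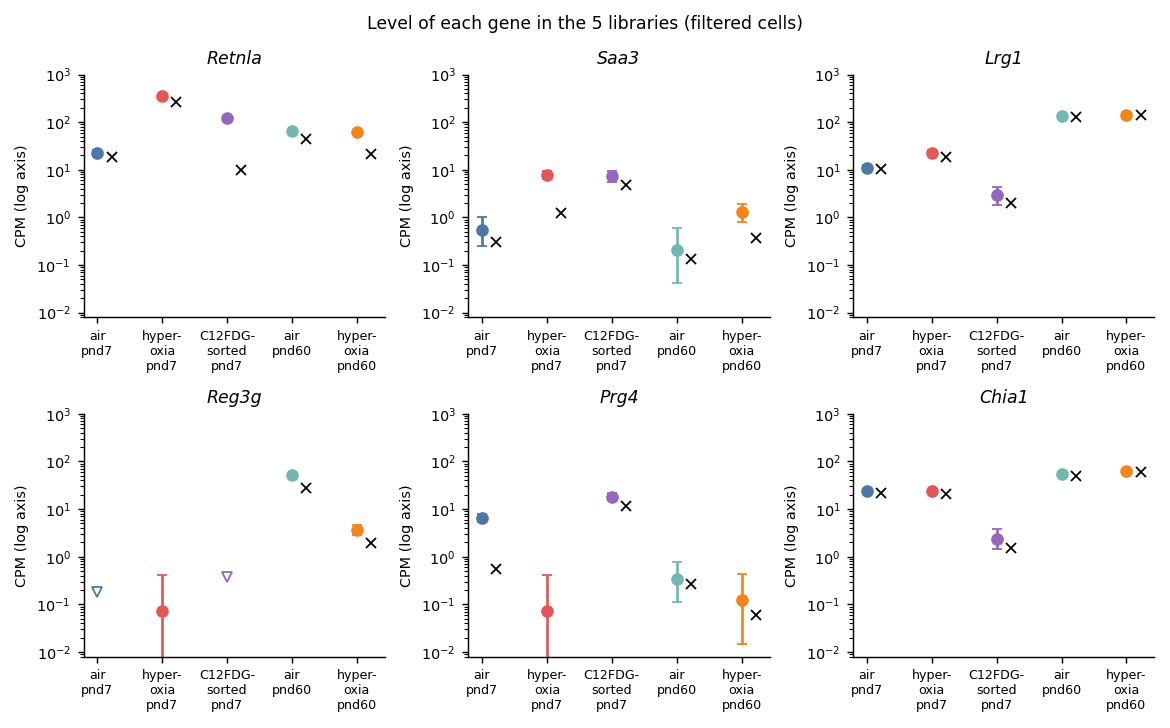
Level of each gene in the 5 libraries (y axis, CPM on a log axis), with exact Poisson 95% intervals as bars. Crosses give the level without the 1 cell that held most UMIs of the gene (none is drawn where no UMI was left), and open triangles mark the level of 3 UMIs where a gene had 0 UMIs; Retnla in the C12FDG-sorted library fell from 120 to 10.0 CPM without 1 cell.

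In type II-like cells, Retnla differed most between hyperoxia and air at pnd7. The 186 type II-like cells of air held 200 Retnla UMIs (72.8 CPM, 63.1 to 83.7) and the 148 of hyperoxia held 4493 (1770 CPM, 1719 to 1823). The log2 ratio was 4.60 (4.40 to 4.81), a 24.3-fold difference, and it ranked 3 of 10402 genes in these cells. Retnla had been chosen by its changes in these libraries, so nothing is read from this rank. The log2 ratio was 4.79 without the top cell of each library and 3.71 when each cell was classed by its own marker counts. It was 3.87 when a cluster of dividing cells with type II genes was added. That cluster was not named type II-like because its 10 leading genes, mostly of dividing cells, held 1 secretory airway marker (Scgb3a2) and no type II marker. Its 19 air cells held 84 Retnla UMIs and its 85 hyperoxia cells 116, which is 215 CPM (172 to 266) in air against 122 CPM in hyperoxia. In air, 1 cell held 41 of the 84 UMIs, and without the top cell of each library the levels were 110 and 108 CPM. By CPM, this cluster did not show the difference seen in the type II-like cells. A Retnla UMI was found in 8 of its 19 air cells and in 41 of its 85 hyperoxia cells. The median depth of these cells was 23599 UMIs in air and 4597 in hyperoxia, and the shares were not compared at an equal depth. Type II-like cells made up 8.06% of the air cells and 11.9% of the hyperoxia cells. With the class CPM weighted by the same class shares in both libraries, the ratio over all cells was 3.88, close to the unweighted 3.94.

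More type II-like cells held Retnla in hyperoxia, and a few of them held most of it. A Retnla UMI was found in 42 of 186 air cells (22.6%, 16.8 to 29.3) and in 84 of 148 hyperoxia cells (56.8%, 48.4 to 64.9). After each cell was thinned to 5000 UMIs, which left out 18 and 24 shallower cells, the shares were 9.52% and 39.5%, the latter with an interval of 30.9 to 48.7. In T cells, B cells and innate lymphoid cells, which should lack the gene, 0 of 276 air cells and 0 of 142 hyperoxia cells held a UMI. The upper interval ends of these shares were 1.33% and 2.56%. The share was not 0 in all other cells. An unnamed cluster led by platelet and hemoglobin genes (Itga2b, Hbb-bs, Hba-a1) held a Retnla UMI in 28 of 421 air cells (6.65%, 4.46 to 9.47) and in 14 of 72 hyperoxia cells (19.4%, 11.1 to 30.5), at medians of 2129 and 1815.5 UMIs. Its levels were 40.3 CPM in air and 106 CPM in hyperoxia. The median lymphoid cell had 4697 and 5664.5 UMIs, against 14549.5 and 17388 in type II-like cells. Scaled to a cell total of 10000 UMIs, Retnla ran from 0 through a median of 0 to 41.7 in air, and from 0 through a median of 0.535 to 449 in hyperoxia. More than 10 Retnla UMIs were found in 3 air cells and in 26 hyperoxia cells, and more than 100 in 0 and 10 cells. The 10 highest cells held 85.9% of the hyperoxia UMIs, and the highest had 1172 and 995. Neither was called a doublet, in a library where the caller marked 4 cells. Leaving out the 5 highest cells of each library gave a log2 ratio of 3.12 over all cells, and leaving out the 5 highest type II-like cells gave 4.06 in that class.

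**Figure D3:**
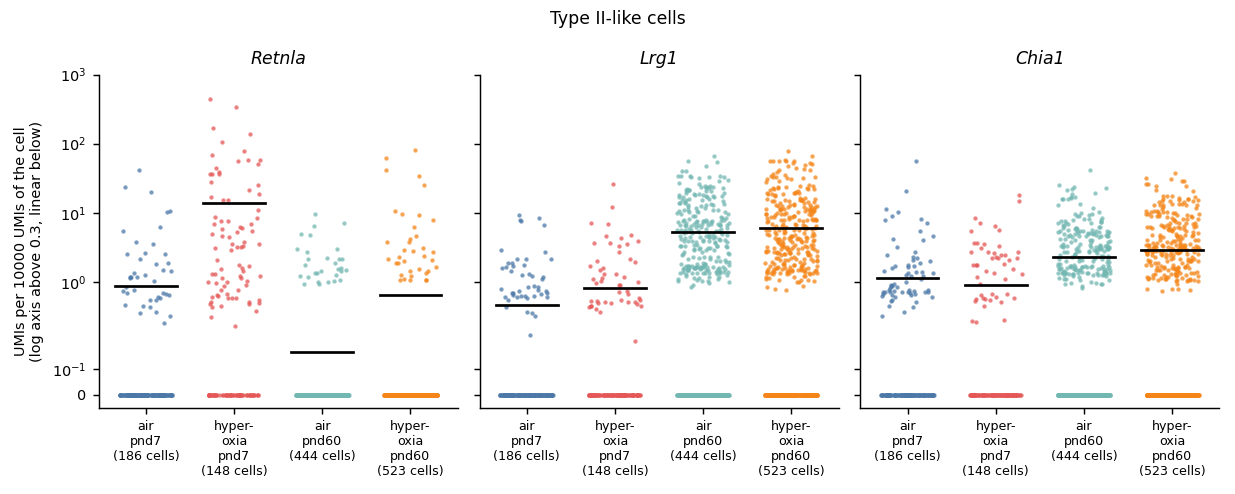
Retnla, Lrg1 and Chia1 in single type II-like cells of the 4 unsorted libraries, as UMIs scaled to a cell total of 10000 (y axis, log above 0.3 and linear below). Each point is 1 cell and the line is the mean over cells; Retnla reached 449 in hyperoxia at pnd7 against 41.7 in air, while Lrg1 and Chia1 were higher at pnd60 than at pnd7.

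Retnla UMIs in the other epithelium were few, and in type I-like cells their level was no higher than in the cluster led by platelet and hemoglobin genes. Type I-like cells, which form the thin gas exchange surface, held 33 Retnla UMIs in 27 of 221 cells in air at pnd7 (31.0 CPM, 21.4 to 43.6) and 10 UMIs in 3 of 42 cells in hyperoxia (13.6 CPM, 6.51 to 25.0), 7 of them in 1 cell. The class lay mostly in different clusters in the 2 libraries, with 204 air cells and 8 hyperoxia cells in one and 17 and 34 in the other, and its median depth was 2075 UMIs in air and 12032 in hyperoxia. Secretory airway-like cells held 7 UMIs in 6 of 148 air cells and 10 UMIs in 8 of 21 hyperoxia cells. In hyperoxia, 19 of these 21 cells lay in 1 cluster, where 7 cells held 8 UMIs, at 161 CPM. This level was above the 106 CPM of the cluster led by platelet and hemoglobin genes but within its interval (65.8 to 162). The secretory airway-like cells of pnd7 were shallow, with medians of 1923 and 2325 UMIs. In hyperoxia, 1 of 19 interstitial macrophage-like cells held 139 UMIs. Barcodes that the filter removed held 31 Retnla UMIs in air and 748 in hyperoxia, 702 of the latter in barcodes with 8000 genes or more.

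At pnd60, the level over all cells was nearly the same in air and hyperoxia when every cell was counted, but different cells carried it. In air, 6 of 66 interstitial macrophage-like cells held 613 of the 954 UMIs, with 311 in the highest, and 2 of 125 dendritic-like cells held 213. In hyperoxia, 1 dendritic-like cell held 660 of the 1022 UMIs, and the 56 interstitial macrophage-like cells held 9. The 5 highest cells thus held 88.8% of the air UMIs and 86.6% of the hyperoxia UMIs. Type II-like cells held 59 UMIs in air (20.7 CPM, 15.8 to 26.7) and 294 in hyperoxia (91.4 CPM, 81.3 to 103), a log2 ratio of 2.14 (1.73 to 2.57) that was 1.95 without the top cell of each library. The 3 highest hyperoxia cells held 76, 76 and 56 UMIs, and without the 5 highest type II-like cells of each library 33 and 60 UMIs were left and the ratio was 0.69 (0.05 to 1.35), under 2-fold. The shares of type II-like cells with a UMI did not follow this difference, with 30 of 444 (6.76%, 4.60 to 9.51) in air and 37 of 523 (7.07%, 5.03 to 9.62) in hyperoxia. The 10 highest cells held 64.4% of the UMIs in air and 87.8% in hyperoxia, and 4 hyperoxia cells but no air cell had more than 10 UMIs. Lymphoid cells held a UMI in 0.401% and 0.291% of cells at a median of 1740 and 1873.5 UMIs, against 6429 and 6313 in type II-like cells. In secretory airway-like cells, 7 of 13 air cells held 47 Retnla UMIs and 5 of 12 hyperoxia cells held 21.

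In the C12FDG-sorted library Retnla rested on 1 cell. Of 949 UMIs (120 CPM, 113 to 128), 870 were in 1 of 412 alveolar macrophage-like cells, and 4 other cells of that class held 20 more. The 8 type II-like cells held 22 UMIs, 21 of them in 1 cell. In 1 type I-like cluster, 2 of 3 cells held 22 UMIs, 20 of them in 1 cell, and interstitial macrophage-like cells held 14. Over all cells the level was lower than in unsorted hyperoxia cells, with a log2 ratio of -1.56 (-1.66 to -1.45). It was -4.74 without the top cell of each library and -0.83, under 2-fold, with all barcodes. Lrg1 (23 UMIs) and Chia1 (19 UMIs) were lower as well, with log2 ratios of -2.98 and -3.31, while Prg4 was higher. In all, 1 of the 5 genes with enough UMIs was past 2-fold higher and 3 were lower, beside 8.12% and 43.4% of 14538 genes, whose median was shifted by -0.74. Type II-like cells were 1.62% of the sorted cells. With the class shares held equal, the log2 ratio of Lrg1 was -0.33 and that of Chia1 was 0.05. These weighted values rest on few sorted cells. The 8 type II-like cells held 15 Lrg1 UMIs (93.7 CPM) and 6 Chia1 UMIs (37.5 CPM). In unsorted hyperoxia the type II-like levels were 95.7 and 89.4 CPM. A further 7 of the 19 sorted Chia1 UMIs were in 1 cell of an unnamed cluster. The part of cell composition in these differences was not tested.

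By its share of UMIs, Lrg1 was mainly in type II-like cells in all 4 unsorted libraries. Type II-like cells held 125 of 185 UMIs in air and 243 of 312 in hyperoxia at pnd7, and 1647 of 1964 and 2119 of 2388 at pnd60. At pnd7, the level in these cells was 45.5 CPM (37.9 to 54.2) in air and 95.7 CPM (84.1 to 109) in hyperoxia, a log2 ratio of 1.07 (0.76 to 1.40). A UMI was found in 47 of 186 air cells (25.3%) and 50 of 148 hyperoxia cells (33.8%), and after thinning to 5000 UMIs in 11.9% (7.43 to 17.8) and 25.8% (18.4 to 34.4). This difference depended in part on 1 cell with 62 UMIs: without the top cell of each library the ratio was 0.82 (0.47 to 1.17), under 2-fold, and with the dividing cluster it was 0.86. At pnd60, the levels were 578 CPM (551 to 607) and 659 CPM (631 to 688), and the shares of cells with a UMI were 58.8% and 58.3%. The log2 ratio there was 0.19 (0.10 to 0.28), so the difference between air and hyperoxia at pnd60 was small.

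Lrg1 was also detected in neutrophil-like cells and in endothelium. At pnd7, 4 of 16 neutrophil-like cells in air held 11 UMIs (166 CPM) and 4 of 14 in hyperoxia held 12 (184 CPM). These levels, on few UMIs, were above the 45.5 and 95.7 CPM of type II-like cells. The neutrophil-like level at pnd60 was below the type II-like 578 CPM in air and above the type II-like 659 CPM in hyperoxia. At pnd60, 14 of 31 neutrophil-like cells in air held 28 UMIs (425 CPM, 282 to 614) and 39 of 60 in hyperoxia held 102 (915 CPM, 746 to 1111). Large vessel endothelial-like cells held 74 UMIs in 27 of 101 air cells (269 CPM, 211 to 338) and 37 UMIs in 12 of 97 hyperoxia cells (114 CPM, 80.1 to 157). The hyperoxia level was thus higher in neutrophil-like cells and lower in large vessel endothelial-like cells, between single libraries and in classes picked after their values were seen. Of the large vessel UMIs, 71 in air and all 37 in hyperoxia were in 1 cluster. It held 55 of the 101 air cells and 43 of the 97 hyperoxia cells, at 450 and 245 CPM, under 2-fold. The part of the cluster mix in the class difference was not tested. Lymphatic endothelial-like cells at pnd60 held 18 UMIs in 8 of 12 air cells (212 CPM) and 55 UMIs in 13 of 20 hyperoxia cells (275 CPM). In hyperoxia at pnd7, the 2 cells of this class held 20 UMIs. In the 706 cells of hyperoxia at pnd60 whose clusters were named endothelial-like, and not large vessel or lymphatic endothelial-like, the level was 15.7 CPM. The 137 UMIs in alveolar macrophage-like cells of air at pnd60 included 87 in 1 cell that was called a doublet.

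Cells with Retnla and cells with Lrg1 overlapped in hyperoxia at pnd7. Of the 84 type II-like cells with a Retnla UMI, 38 (45.2%) held Lrg1, against 12 of the 64 without (18.8%). The median depth was 17849.5 UMIs in the former and 16805 in the latter. In air at pnd7 the shares were 33.3% of 42 and 22.9% of 144 cells, at medians of 16192.5 and 14125.5 UMIs. Chia1 was found in 36.9% of the hyperoxia cells with Retnla and in 28.1% of those without. The part of depth in these shares was not tested.

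Chia1 was likewise mainly in type II-like cells, and its level there was within 2-fold between air and hyperoxia at both ages. At pnd7, 68 of 186 air cells held 308 UMIs (112 CPM) and 49 of 148 hyperoxia cells held 227 (89.4 CPM, 78.2 to 102). The log2 ratio was -0.33 (-0.58 to -0.07). At pnd60, 217 of 444 air cells held 673 UMIs (236 CPM, 219 to 255) and 258 of 523 hyperoxia cells held 941 (293 CPM, 274 to 312), a log2 ratio of 0.31 (0.16 to 0.45). The dividing cluster held 40 and 81 Chia1 UMIs in air and hyperoxia at pnd7, at 102 and 84.9 CPM. Secretory airway-like cells at pnd60 held 76 UMIs in 6 of 13 air cells and 68 in 5 of 12 hyperoxia cells, at 226 and 282 CPM. Removed barcodes of air at pnd7 held a further 288 Chia1 UMIs, 283 of them in barcodes with 8000 genes or more and 149 in 1 barcode. With all barcodes the log2 ratio at pnd7 was -0.79. Thus, in type II-like cells at pnd7, 2 of the 3 genes with enough UMIs (Retnla and Lrg1) were past 2-fold higher and none was lower, beside 1.76% and 2.5% of 10402 genes. At pnd60, 1 of 3 (Retnla, under 2-fold without the 5 highest cells) was higher and none was lower, beside 1.32% and 0.903% of 11077 genes.

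**Figure D4:**
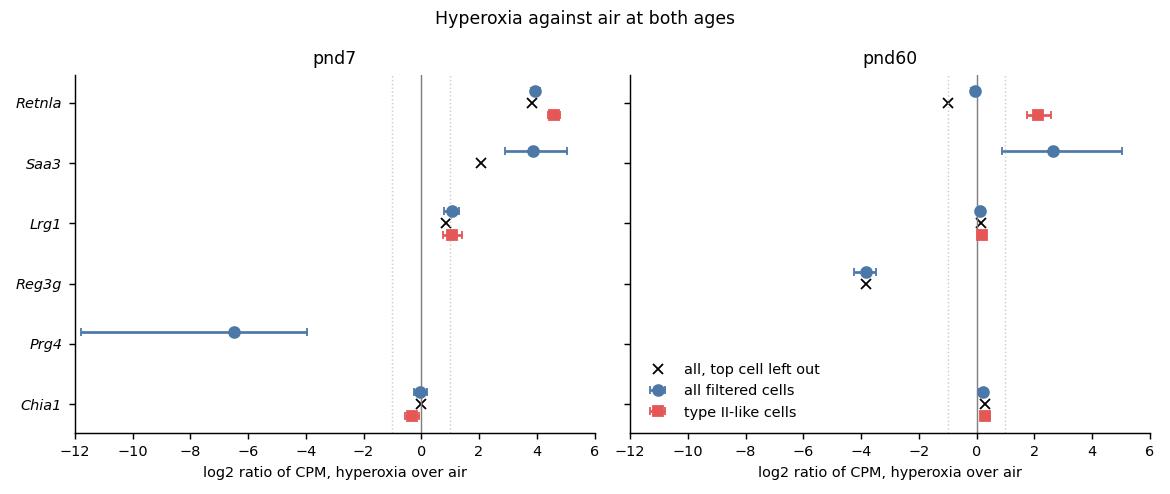
Log2 ratio of CPM of hyperoxia over air (x axis) at pnd7 and pnd60 for genes with at least 20 UMIs, over all filtered cells (circles), without the top cell of each library (crosses) and in type II-like cells (squares), with 95% counting intervals. Dotted lines mark 2-fold; Retnla in type II-like cells was higher in hyperoxia at both ages (at pnd60 0.69 and under 2-fold without the 5 highest cells), while over all cells at pnd60 its ratio was near 0 and without the top cells -0.99.

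Reg3g was almost absent at pnd7 and was carried by few airway cells at pnd60. No Reg3g UMI was found in 2308 air cells at pnd7, 1 was found in hyperoxia and none in the C12FDG-sorted cells. In air at pnd60, 4 of 13 secretory airway-like cells held 765 of 782 UMIs, with 373, 231, 83 and 78 each. At a coarser clustering, the class named secretory airway-like held 20.6% of the air UMIs in place of 97.8%. In hyperoxia at pnd60, 2 of 12 secretory airway-like cells held 21 of 61 UMIs, and 1 ciliated airway-like cell, which was called a doublet, held 29. The difference of -3.85 on the log2 scale was thus a difference between a handful of cells, and leaving out the 5 highest cells of each library gave -0.70. The filter also bore on it. Removed barcodes at pnd60 held 194 Reg3g UMIs in air and 229 in hyperoxia, of which 190 in each library were in 1 barcode with more than 8000 genes. With all barcodes the log2 ratio was -1.95. A Reg3g UMI was found in 0.251% of lymphoid cells in air and 0.291% in hyperoxia.

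Saa3 was sparse, and most of its UMIs in hyperoxia were in single cells. At pnd7, 1 fibroblast-like cell of hyperoxia held 90 of 107 UMIs and type II-like cells held 9, whereas the 9 UMIs of air were in 5 cells. In the C12FDG-sorted library, 56 of 57 UMIs were in 6 of 48 interstitial macrophage-like cells (75.8 CPM, 57.3 to 98.4), while the 19 such cells of unsorted hyperoxia held none. All 56 UMIs were in 1 cluster, which held 46 of the 48 sorted cells and no cell of unsorted hyperoxia. The 19 unsorted cells were all in another cluster, so the sort and the cluster cannot be told apart here. At pnd60, 1 fibroblast-like cell of hyperoxia held 15 of 21 UMIs, and air had 3 UMIs in 3 cells. No type II-like cell at pnd60 held Saa3.

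Prg4 was in cells of the class named interstitial macrophage-like, which is marked by complement C1q genes. The Prg4 cells held no UMI of Cx3cr1, a receptor that many other cells of the class carried. Whether the Prg4 cells were interstitial macrophages was not tested. In air at pnd7, 3 of 20 such cells held 107 of 109 UMIs, with 100 in 1 cell. All 144 Prg4 UMIs of the C12FDG-sorted library (18.3 CPM, 15.4 to 21.5) were in 4 of 48 such cells, with 52, 48, 33 and 11 each, and the last of these cells was called a doublet. These 4 cells lay in the cluster that held 46 of the 48 sorted cells and no cell of unsorted hyperoxia. The 3 highest of them also held Saa3, with 10, 19 and 14 UMIs, and the air cell with 100 Prg4 UMIs held 4. The 19 interstitial macrophage-like cells of unsorted hyperoxia at pnd7 and the 66 and 56 of air and hyperoxia at pnd60 held no Prg4. The level in this class was 453 CPM (371 to 547) in air at pnd7. With 3 UMIs set for the hyperoxia cells, the log2 ratio was -5.18, with an upper interval end of -4.85. Without the air cell with 100 UMIs that ratio was -1.24, on fewer than 20 UMIs and so too few to call. The interval counts UMIs and not cells. By cells, Prg4 was in 3 of 20 in air and in none of 19 in hyperoxia, and this difference was not tested.

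Between pnd7 and pnd60, Lrg1 and Chia1 were higher at the later age in both exposures. Over all cells the log2 ratios of pnd60 over pnd7 in air were 3.58 (3.37 to 3.81) for Lrg1 and 1.13 (0.95 to 1.30) for Chia1, and in hyperoxia they were 2.65 (2.48 to 2.83) and 1.40 (1.21 to 1.58). The median of all genes was shifted by 0.22 in air and 0.29 in hyperoxia, and with TMM scaling Chia1 in air was at 0.89, under 2-fold. The lowest Chia1 value in air under the alternatives was 0.57. Reg3g went from 0 to 782 UMIs in air, 294-fold higher when 3 UMIs are set for pnd7. This is a log2 ratio of 8.20, with a lower interval end of 7.90. The 5 highest cells held 98.3% of the Reg3g UMIs in air at pnd60, and the lowest log2 ratio under the alternatives was 2.29. Retnla was higher at pnd60 in air (1.49, 1.32 to 1.66) and lower at pnd60 in hyperoxia (-2.52, -2.62 to -2.42). Without the 5 highest cells of each library, the value in air was -0.90. In air, 4 of 5 genes were past 2-fold higher and 1 (Prg4) was lower, beside 17.2% and 11.5% of 16021 genes. In hyperoxia, 3 of 5 were higher and 2 (Retnla and Saa3) were lower, beside 21.7% and 11.2% of 15962 genes.

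In type II-like cells, Retnla was lower at pnd60 than at pnd7 in both exposures, with log2 ratios of -1.81 (-2.26 to -1.39) in air and -4.27 (-4.45 to -4.10) in hyperoxia. Lrg1 was higher by 3.67 (3.40 to 3.94) in air and 2.78 (2.59 to 2.98) in hyperoxia, and Chia1 by 1.07 (0.88 to 1.27) and 1.71. With cells thinned to 1000 UMIs Chia1 in air was at 0.45, and with cells classed by their own markers at 0.98, both under 2-fold. In each exposure 2 of 3 genes were past 2-fold higher and 1 was lower, beside 12.9% and 5.19% of 10840 genes in air and 17.6% and 6.18% of 10869 genes in hyperoxia. Nearly all type II-like cells of pnd7 fell in 1 cluster (184 of 186 in air and all 148 in hyperoxia) and most of those of pnd60 in another (429 of 444 and 489 of 523), so age and cluster cannot be told apart here.

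Relatives and partners of these genes were given by lists chosen with earlier results of these data known. Over all cells, 0.926% of all genes were past 2-fold higher in hyperoxia and 2.36% lower at pnd7, and 1.28% and 0.829% at pnd60. In type II-like cells these shares were 1.76% and 2.5% at pnd7, and 1.32% and 0.903% at pnd60. At such shares most short lists would hold few such genes or none. In the resistin family, Retnlg, a product of neutrophils, had 372 and 190 UMIs in air and hyperoxia at pnd7 (log2 ratio -0.68, -0.93 to -0.42) and 194 and 505 at pnd60 (1.21, 0.97 to 1.46), while Retn and Retnlb had at most 10 UMIs in any library. At pnd60, 31 neutrophil-like cells were found in air and 60 in hyperoxia. Of 7 Reg genes only Reg3g had more than 1 UMI. Of 12 acute phase genes, 7 had enough UMIs in the unsorted pnd7 libraries, and Saa3 alone was past 2-fold higher. The median of the 7 was 0.23 against -0.03 over all genes. In type II-like cells at pnd7, 5 had enough UMIs and none passed 2-fold, with a median of 0.67 against -0.03. There Lcn2, an iron-sequestering lipocalin, had 1870 UMIs in air and 3165 in hyperoxia (log2 ratio 0.87, 0.79 to 0.96), and Hp, haptoglobin, had 194 and 286 (0.67, 0.41 to 0.94). At pnd60, the corresponding values were 0.17 and 0.08, and 1 of 6 acute phase genes, Cp (ceruloplasmin), was past 2-fold higher in these cells with 14 and 32 UMIs.

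Among 7 chitinase family genes, Chil3, a product of alveolar macrophages, was past 2-fold higher at pnd7 over all cells (485 and 915 UMIs, log2 ratio 1.21, 1.05 to 1.37). Chil1, a chitinase-like protein of type II cells, had a log2 ratio of 0.46 (0.40 to 0.52) in type II-like cells at pnd7 and -0.03 (-0.07 to 0.02) at pnd60. The 10 receptors and partners, such as Tlr4 and Cd36 for serum amyloid, Eng and Acvrl1 for Lrg1 and Cd44 for Prg4, and the 12 genes of cytokine pathways that can induce these members, such as Stat3, Socs3 and Stat6, were all within 2-fold between air and hyperoxia at either age where they had enough UMIs. Few of all genes were past 2-fold either (at pnd7 over all cells, 0.926% higher and 2.36% lower), so nothing is read from these 2 lists. In type II-like cells, Stat6 was at -0.13 (-0.61 to 0.34) and Socs3, a target of STAT3, at 0.39 (0.05 to 0.73) at pnd7. Of the 12 transitional epithelial genes with enough UMIs in type II-like cells, Cdkn1a, a cell cycle inhibitor, was the 1 gene past 2-fold higher at pnd7 (28 and 64 UMIs, log2 ratio 1.31, 0.64 to 2.00), and none passed at pnd60. Of all genes in these cells, 1.76% were past 2-fold higher at pnd7 and 1.32% at pnd60.

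The genes most like each member were sought by the correlation of log2(CPM + 10) over 44 sums of a class in a library, across 14375 genes. The points share libraries and depth, and the values are a description. Chia1 was most like LOC105244487 (Pearson's r = 0.98), Arhgef38 (0.98) and Klhdc7a (0.98), and its highest point was type II-like cells of hyperoxia at pnd60. Lrg1 was most like Kcnj2 (0.78), Hdc (0.78) and AI182371 (0.77), and its highest point was neutrophil-like cells of hyperoxia at pnd60. Retnla was most like Lad1 (0.77), Serpinf1 (0.73) and Anpep (0.72), and Saa3 was most like Lum (0.69), Hs6st3 (0.68) and Ephx2 (0.66). Both patterns rest on few cells. The highest Retnla point was interstitial macrophage-like cells of air at pnd60, where 6 of 66 cells held 613 UMIs. The highest Saa3 point was fibroblast-like cells of hyperoxia at pnd7, where 1 cell held 90 UMIs. For Reg3g and Prg4 the sums with at least 50 cells spanned under 1 log2 unit (0.43 and 0.37), since the classes that held them were smaller, and the genes found for them, which rest on single UMIs, are not named.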

How the data were processed

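Single-cell RNA-seq was analysed in 5 libraries, 1 per condition. The authors deposited raw UMI counts per gene and barcode, made with Cell Ranger (3.1.0 in the file headers) against mm10 per the labels, and not normalized. Cells with more than 700 and fewer than 8000 genes and under 5% mitochondrial counts, taken from 2 mitochondrial ribosomal RNAs, were kept, as in the methods of the study. This left 7880365 to 16648251 counts per library.

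Cells were clustered without integration, by Leiden clustering (leidenalg 0.10.2, scanpy 1.11.5) on 3000 variable genes and 50 components at a resolution of 2. The members and list genes were left out of the variable genes. The 58 clusters were named from fixed markers, and 5 stayed unnamed. The integration with Seurat 3.2.1 used in the study was not run. Doublets called by Scrublet were kept, and leaving them out was an alternative. The caller marked 0 cells of air and 4 of hyperoxia at pnd7, so it said little there.

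CPM was the sum of a gene's UMIs over the sum of all UMIs of the cells named. Intervals are exact Poisson for CPM, Clopper-Pearson for shares and conditional binomial for log2 ratios, all at 95%. A group with 0 UMIs was set to 3 UMIs, and the interval of such a ratio is open on 1 side. No ratio is given where the other group had 3 UMIs or fewer. With 1 library per condition no test was possible and no p-value is given. Ratios were checked on simulated Poisson counts of whole libraries. Those counts lack the concentration in single cells seen for these genes, so the check does not cover it.

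The 6 genes, the 7 lists and the comparisons were chosen with earlier results of these data known. The text names the members, up to 4 genes per list with most UMIs, the 3 genes most like each member (not reported here for Reg3g and Prg4), and classes that hold the members. List genes outside the 4, such as Cdkn1a and Cp, the neutrophil-like and endothelial-like cells described for Lrg1 and the genes of the closing observations were named after their values were seen. There were 14 alternatives planned and 6 added after seeing the data. Scaling alternatives used edgeR 4.0.16 in R 4.3.3. Sequences are from RefSeq (GRCm38.p6) and gene positions from GENCODE M21.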

Additional observations from a re-analysis of the deposited data

Results flagged for a closer look

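Retnla over all filtered cells was higher at pnd60 than at pnd7 in air (log2 ratio 1.49) and lower in hyperoxia (-2.52). The directions were opposite when every cell was counted, and the difference between the exposures was not tested, since each condition had 1 library. Without the 5 highest cells of each library the value in air was -0.90, the same direction as in hyperoxia. In type II-like cells the level was lower at pnd60 in both exposures, at -1.81 and -4.27.

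Chia1 in type II-like cells was lower in hyperoxia than in air at pnd7 (log2 ratio -0.33) and higher at pnd60 (0.31). Both intervals excluded 0, both values were under 2-fold, and the difference between the ages was not tested.

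Barcodes removed by the filter enter the comparisons only in the alternatives with all barcodes or a wider filter. They held Retnla at 58.8 CPM (54.7 to 63.2) in hyperoxia at pnd7 against 2.34 CPM (1.59 to 3.33) in air. They held Chia1 at 39.7 CPM (31.0 to 50.1) in hyperoxia at pnd60 against 20.6 CPM (13.2 to 30.7) in air. In both hyperoxia libraries most of these UMIs, 702 of 748 and 66 of 71, were in barcodes with 8000 genes or more. Single barcodes held 278 of the 748 Retnla UMIs in hyperoxia at pnd7 and 20 of the 24 Chia1 UMIs in air at pnd60.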

How the results depend on the processing

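With 1 library per condition no replicate could be left out. No paired analysis was possible because no library had a second one to pair with. Of the log2 ratios and shares recomputed under the alternatives, 267 moved by less than their counting interval, 136 moved further and 4 turned direction, and of the counts of members past 2-fold 87 stayed within 1.5 times and 23 did not. The 4 that turned, each with a main interval in 1 direction only, were Prg4 at pnd7 with each cell thinned to 1000 UMIs (0.47), Chia1 in sorted against unsorted cells with class shares held equal (0.05), Retnla from pnd7 to pnd60 in air without the 5 highest cells (-0.90) and Reg3g from pnd7 to pnd60 in hyperoxia with thinned cells (-0.18). Ratios whose main interval spanned both directions are not among these 4. Of those, Saa3 in sorted against unsorted cells went from -0.12 to 1.95 without the top cell of each library. Retnla in hyperoxia against air at pnd60 went from -0.07 to 0.19 without the 5 highest cells. Retnla in type II-like cells ranged from 3.71 to 4.79 at pnd7 and from 0.69 to 2.44 at pnd60, the lowest without the 5 highest type II-like cells of each library, and Lrg1 in these cells at pnd7 from 0.33 to 1.08.

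Without the 5 highest cells, the counts of members past 2-fold were 1 higher and 0 lower at pnd7, 0 and 0 at pnd60, 0 higher in the sort, 2 higher and 0 lower with age in air, and 1 lower with age in hyperoxia. Without the top cell they were 0 lower at pnd7, 0 higher at pnd60, 2 higher in the sort and 0 lower with age in air. Thinned cells gave 0 lower at pnd7, 0 higher at pnd60, 0 higher in the sort, 2 higher and 0 lower with age in air and 1 lower with age in hyperoxia. Class shares held equal gave 2 higher and 1 lower in the sort, the mean CPM per cell gave 2 higher with age in air, and all barcodes or a wider filter gave 2 lower with age in air. Without the top cells or after thinning, Saa3 or Prg4 had fewer than 20 UMIs in some comparisons and could not be called. Totals without hemoglobin moved no value past its interval. The shares at 5000 UMIs and the values without the 5 highest cells, without the top or the 5 top type II-like cells, with the dividing cluster and in that cluster without its top cell were chosen after seeing the data.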

Other observations

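In hyperoxia at pnd7, the 26 type II-like cells with more than 10 Retnla UMIs were set beside the 64 without any, as a description of 1 library with genes chosen after their values were seen. The median depth was 20546.5 and 16805 UMIs. Type II markers were nearly the same in both, with log2 ratios of -0.09 for Sftpc and -0.02 for Sftpa1. Higher in the Retnla cells were Cd14, a lipopolysaccharide coreceptor (1.97, 1.18 to 2.79), Itih4, an acute phase protein (1.84, 1.09 to 2.62), Il33, an alarmin that type II cells make (1.60, 1.31 to 1.88), Chil1 (1.06, 0.97 to 1.15) and Lcn2 (0.77, 0.65 to 0.89). Lrg1 had 121 UMIs in 18 of the 26 cells, 62 of them in 1 cell, and 33 UMIs in 12 of the 64. Lower were the growth factors Areg (-1.58, -2.44 to -0.80) and Hbegf (-1.26, -2.06 to -0.53) and Sfn (-1.21, -2.06 to -0.44). These intervals cover counting error and not the spread between cells or mice.

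The interstitial macrophage-like cells with Prg4 shared other genes at pnd7 in both libraries that held them. In the C12FDG-sorted library, Fn1 (fibronectin) had 364 UMIs in the 4 Prg4 cells and 14 in the other 44, F5 (coagulation factor V) 34 and 0, Serpinb10 22 and 0, and Icam2 23 and 2. In air, Fn1 had 727 UMIs in the 3 Prg4 cells and 65 in the other 17, F5 107 and 1, Serpinb10 71 and 0, and Icam2 50 and 5. Timd4 was at 343 and 18.9 CPM in the sorted and 827 and 220 CPM in the air cells with and without Prg4. Cx3cr1, a chemokine receptor of lung macrophages, had 0 UMIs in the Prg4 cells of both libraries and 91 and 231 in the other cells. C1qa was present in all of these cells, at 3018 and 2996 CPM in the sorted and 3212 and 4936 CPM in the air cells with and without Prg4. The genes were chosen after their values were seen.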
